A study of Mus musculus with 20 samples.

Results

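Genes of the constitutive proteasome were followed in full-thickness skin of naïve mice and of mice injected with IL-23. A gene was included when a probe-set of the array carried its symbol alone and the symbol began with Psma, Psmb, Psmc, Psmd, Psme, Psmf or Psmg and a digit. The interferon-inducible subunits Psmb8, Psmb9 and Psmb10 were left out. This gave 46 genes with 99 of the 45101 probe-sets. Of these genes, 44 encode proteasome subunits, their regulators or their assembly factors. The other two are Psmc3ip, a recombination factor whose product was first found bound to a proteasome ATPase, and Psme3ip1, a partner of the activator PA28γ.

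Skin was measured in 4 groups of 5 female C57BL/6 mice, with 1 array per mouse. Mice were bought at 6 weeks of age and housed for 1 week. The IMO-8400 group received IL-23, 3 µg per day intradermally in the back on days 1 to 4, and then 15 mg/kg of IMO-8400, an antagonist of TLR7, TLR8 and TLR9, subcutaneously at a distant site on days 4 to 6. The IMO-3100 group received the same IL-23 and the same dose of IMO-3100, an antagonist of TLR7 and TLR9. The saline group received IL-23 and saline, and the naïve group was not treated. On day 7 the injected skin was taken. The 3 injected groups share the IL-23. The inflammation was driven by an injected cytokine and lasted a few days, which limits the model.

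The proteasome is the main protease for ubiquitin-tagged proteins in the cytosol and nucleus. Its 20S core holds outer rings of α subunits, which gate the entrance, and inner rings of β subunits, of which Psmb5, Psmb6 and Psmb7 carry the catalytic sites. The 19S cap binds the ubiquitin chain, removes it and unfolds the protein with a ring of ATPases, and dedicated chaperones build both parts. In skin it takes part in the turnover of inhibitors of NF-κB and in making peptides for antigen presentation, and interferon-γ replaces the catalytic subunits by immunoproteasome subunits.

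The 250 bases before the transcription start are shown for 4 of these genes, since the members moved together and some proteasome promoters are known to carry an antioxidant response element, bound by NRF1 and NRF2. Psmb5 and Psmb6 are catalytic subunits, and Psmd9 and Psmg4 are the assembly factors with the largest differences. Sequences are those of RefSeq on GRCm38.p6, read 5′ to 3′ on the strand of the gene, at chr14:54617996-54618245 (minus strand), chr11:70525107-70525356 (plus), chr5:123227940-123228189 (plus) and chr13:34162714-34162963 (plus). Capitals mark TGACNNNGC, the core of the antioxidant response element, on either strand, and in Psmd9 also GAAANNGAA, a part of the interferon-stimulated response element. The window of Psmg4 held none of the letters searched.
Psmb5: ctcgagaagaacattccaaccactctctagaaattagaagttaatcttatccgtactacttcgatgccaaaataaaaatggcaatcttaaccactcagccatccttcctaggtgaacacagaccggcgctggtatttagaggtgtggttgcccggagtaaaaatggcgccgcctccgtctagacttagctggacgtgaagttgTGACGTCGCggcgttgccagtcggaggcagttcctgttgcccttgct
Psmb6: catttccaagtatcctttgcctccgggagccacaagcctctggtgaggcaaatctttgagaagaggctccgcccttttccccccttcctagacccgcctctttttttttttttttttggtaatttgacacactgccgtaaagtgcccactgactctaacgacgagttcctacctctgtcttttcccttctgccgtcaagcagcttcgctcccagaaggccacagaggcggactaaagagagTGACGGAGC
Psmd9: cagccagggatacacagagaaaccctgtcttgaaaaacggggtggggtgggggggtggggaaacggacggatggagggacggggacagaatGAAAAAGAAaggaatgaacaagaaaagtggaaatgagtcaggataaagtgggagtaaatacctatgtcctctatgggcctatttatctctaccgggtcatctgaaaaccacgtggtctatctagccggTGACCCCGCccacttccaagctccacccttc
Psmg4: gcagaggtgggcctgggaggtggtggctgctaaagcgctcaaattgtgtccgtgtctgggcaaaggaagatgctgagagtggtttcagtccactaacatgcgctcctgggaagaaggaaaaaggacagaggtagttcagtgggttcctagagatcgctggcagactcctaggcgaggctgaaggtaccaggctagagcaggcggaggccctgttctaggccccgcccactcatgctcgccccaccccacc

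A window was found for 36 of the 44 proteasome genes. TGACNNNGC stood in 5 of these 36 genes (Psmb5, Psmb6, Psmd9, Psmd12 and Psmc6), or 13.9%, against 11.5% of 27025 genes with a window. CCAAT stood in 13 of 36 genes (36.1%, against 37.5% of all), TTCNNNGAA in 1 gene, Psmg1 (2.78%, against 8.13%), and GAAANNGAA in 3 genes (8.33%, against 8.18%). Both strands were searched, and no motif overlapped another in the 4 windows shown. These matches describe letters in a window, and binding was not measured.

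Expression is given as GCRMA values in log2 units, so that a difference of 1 is a 2-fold change (FCH). Array medians lay between 6.086 and 6.286, and values ran between 2.02, the lowest value GCRMA gave, and 15.8. Of the 99 probe-sets, 85 passed the filter on low and invariant values and were tested, among 30960 tested in all, with limma and an FDR over all of them. Of the 14 not tested, 10 had a mean below 3, including the thymus subunit Psmb11 at 2.02 in every array, and 4 were bright but nearly constant. Each gene is described by its brightest probe-set, and 39 of the 44 proteasome genes were tested by it. In the testis subunit Psma8 this probe-set was below 3 in all 20 mice. As a check of the tissue, the list mean of 6 keratinocyte genes lay between 14.0 and 14.4 in every mouse. Naïve mice differed widely in genes of the hair shaft and growing follicle, with list means between 3.88 and 13.6, and IMO-8400 replicate 5 (7.33) stood apart from the other IL-23-injected mice.

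The proteasome genes were higher as a group in IL-23-injected skin given saline, and lay near the naïve level in both antagonist groups. In the mean over the 44 genes, relative to the naïve mean, the IMO-8400 mice lay at -0.004, -0.070, 0.063, -0.021 and 0.047 log2 units. The IMO-3100 mice lay at -0.040, 0.072, -0.128, -0.108 and 0.020. The saline mice lay at 0.268, 0.312, 0.360, 0.290 and 0.254, and the naïve mice at 0.197, -0.068, 0.002, 0.025 and -0.157. All 5 saline mice were above all 15 others. The mean over all 30960 tested probe-sets, taken the same way, lay between -0.077 and 0.014 in every mouse. Naïve replicate 1 was the highest and naïve replicate 5 the lowest naïve mouse in 37 and 33 of the 46 genes. These were also the naïve mice with the highest and the lowest hair genes. Replicate 1 was also the lowest naïve mouse in the T cell, neutrophil, macrophage, interferon-γ and muscle lists, and replicate 5 the highest in the neutrophil, macrophage and muscle lists. The part of these cell types in the spread of the naïve group was not tested. In whole skin, fewer cells of a type and less RNA per cell cannot be told apart.

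**Figure D1:**
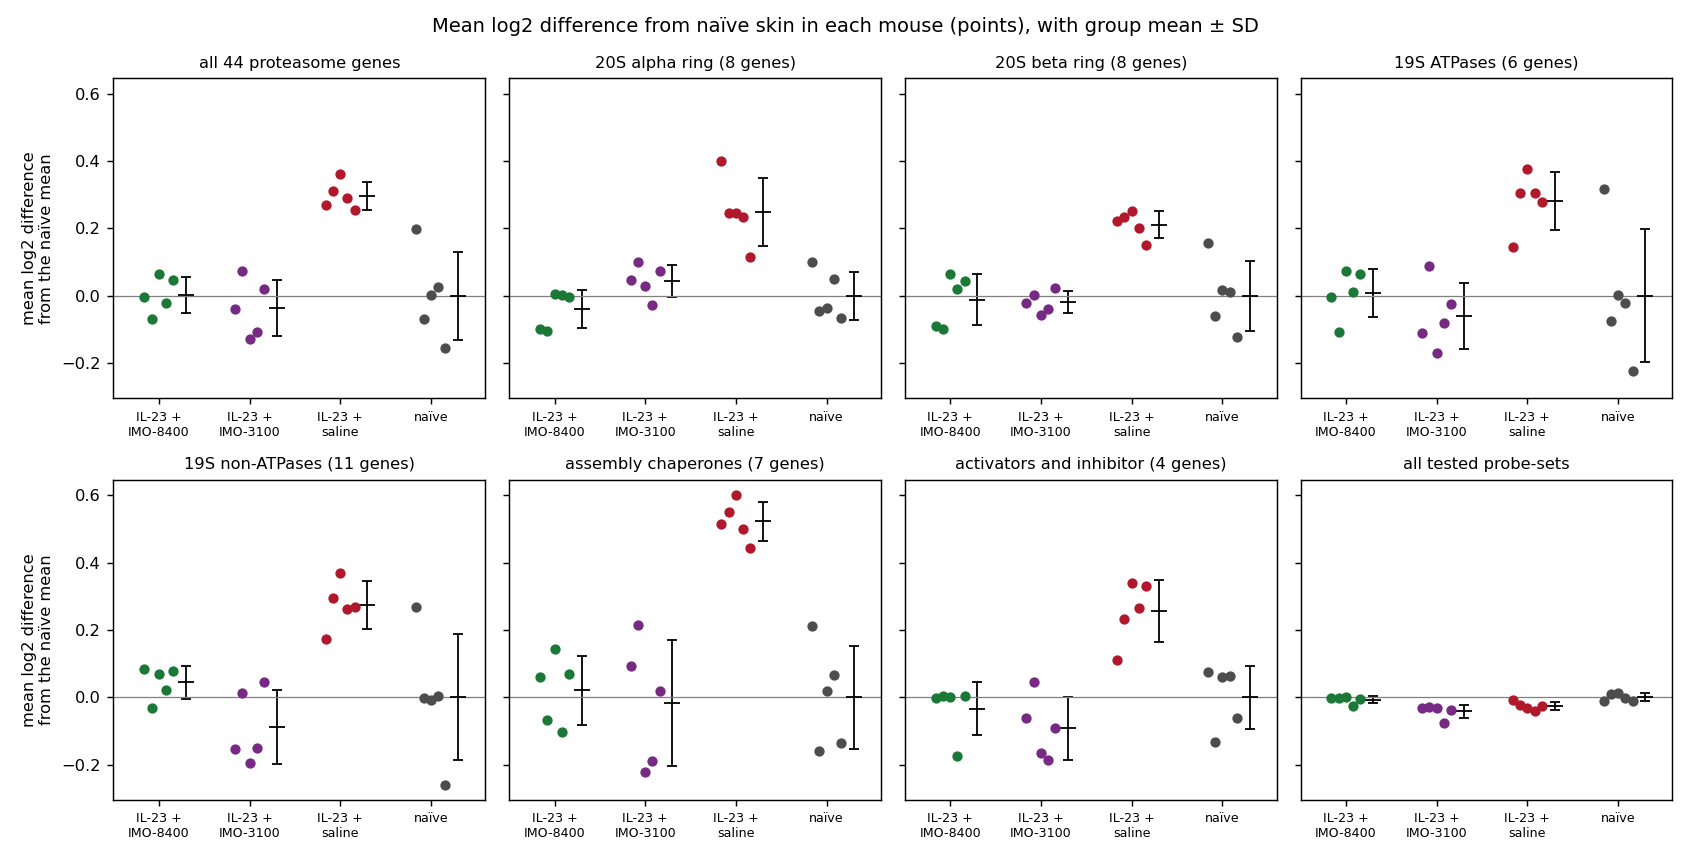
Mean log2 difference from the naïve mean, per mouse, for the 44 proteasome genes, for each role and for all 30960 tested probe-sets, in the order IMO-8400, IMO-3100, saline and naïve. Points are mice and bars are the mean ± SD (n = 5). The saline mice sit between 0.254 and 0.360 for the 44 genes, above all other mice, while all tested probe-sets stay between -0.077 and 0.014.

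Saline skin was compared with naïve skin. The naïve mice were not treated, so the effects of IL-23, of the injections and of saline cannot be told apart. Of the 39 tested proteasome genes, 25 were up-regulated and 0 down-regulated at an FDR under 0.05 (limma, 28 and 0 at an unadjusted p under 0.05), and 37 of 39 differences were above 0. At the level of probe-sets, 41 of 85 were higher, or 48.2%, where 20.7% of all tested probe-sets were. Another 5 of 85 were lower, where 24% of all were. The median log2 difference was 0.25 over the 85 probe-sets and -0.04 over all tested. The changes were small, since 1 member passed FCH > 2 upwards (7.58% of all tested) and 1 downwards (8.92% of all). Leaving out naïve replicate 1 gave 51 higher probe-sets, and leaving out naïve replicate 5 gave 30. The share of all tested probe-sets in these refits is not given here.

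The effect of each antagonist was asked against saline, with the same saline arrays in both comparisons and in the comparison with naïve skin. IMO-8400 down-regulated 26 of 39 proteasome genes and up-regulated 0 (limma, 31 and 0 at an unadjusted p under 0.05), and all 39 differences were below 0. In probe-sets this was 43 of 85 lower (50.6%), where 13.2% of all tested were lower, and 0 higher, where 14.7% of all were (limma, 2 members higher at an unadjusted p under 0.05). IMO-3100 down-regulated 27 of 39 genes and up-regulated 0 (33 and 0 at an unadjusted p under 0.05), with 38 of 39 differences below 0. In probe-sets this was 40 of 85 lower (47.1%), where 14.4% of all tested were lower, and 3 higher, where 12.4% of all were. The median difference over the 85 probe-sets was -0.29 with IMO-8400 and -0.26 with IMO-3100, beside 0.01 over all tested in both. At FCH > 2, 3 members fell and 0 rose with either antagonist, while IMO-8400 moved 3.59% of all tested probe-sets down and 4.46% up, and IMO-3100 3.73% down and 2.69% up. Without IMO-8400 replicate 2 the 43 lower probe-sets were 24, and no other mouse moved these counts over 1.5 times, apart from those of 0 to 5 probe-sets. The shares of all tested probe-sets given above are of the fit with all mice.

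**Figure D2:**
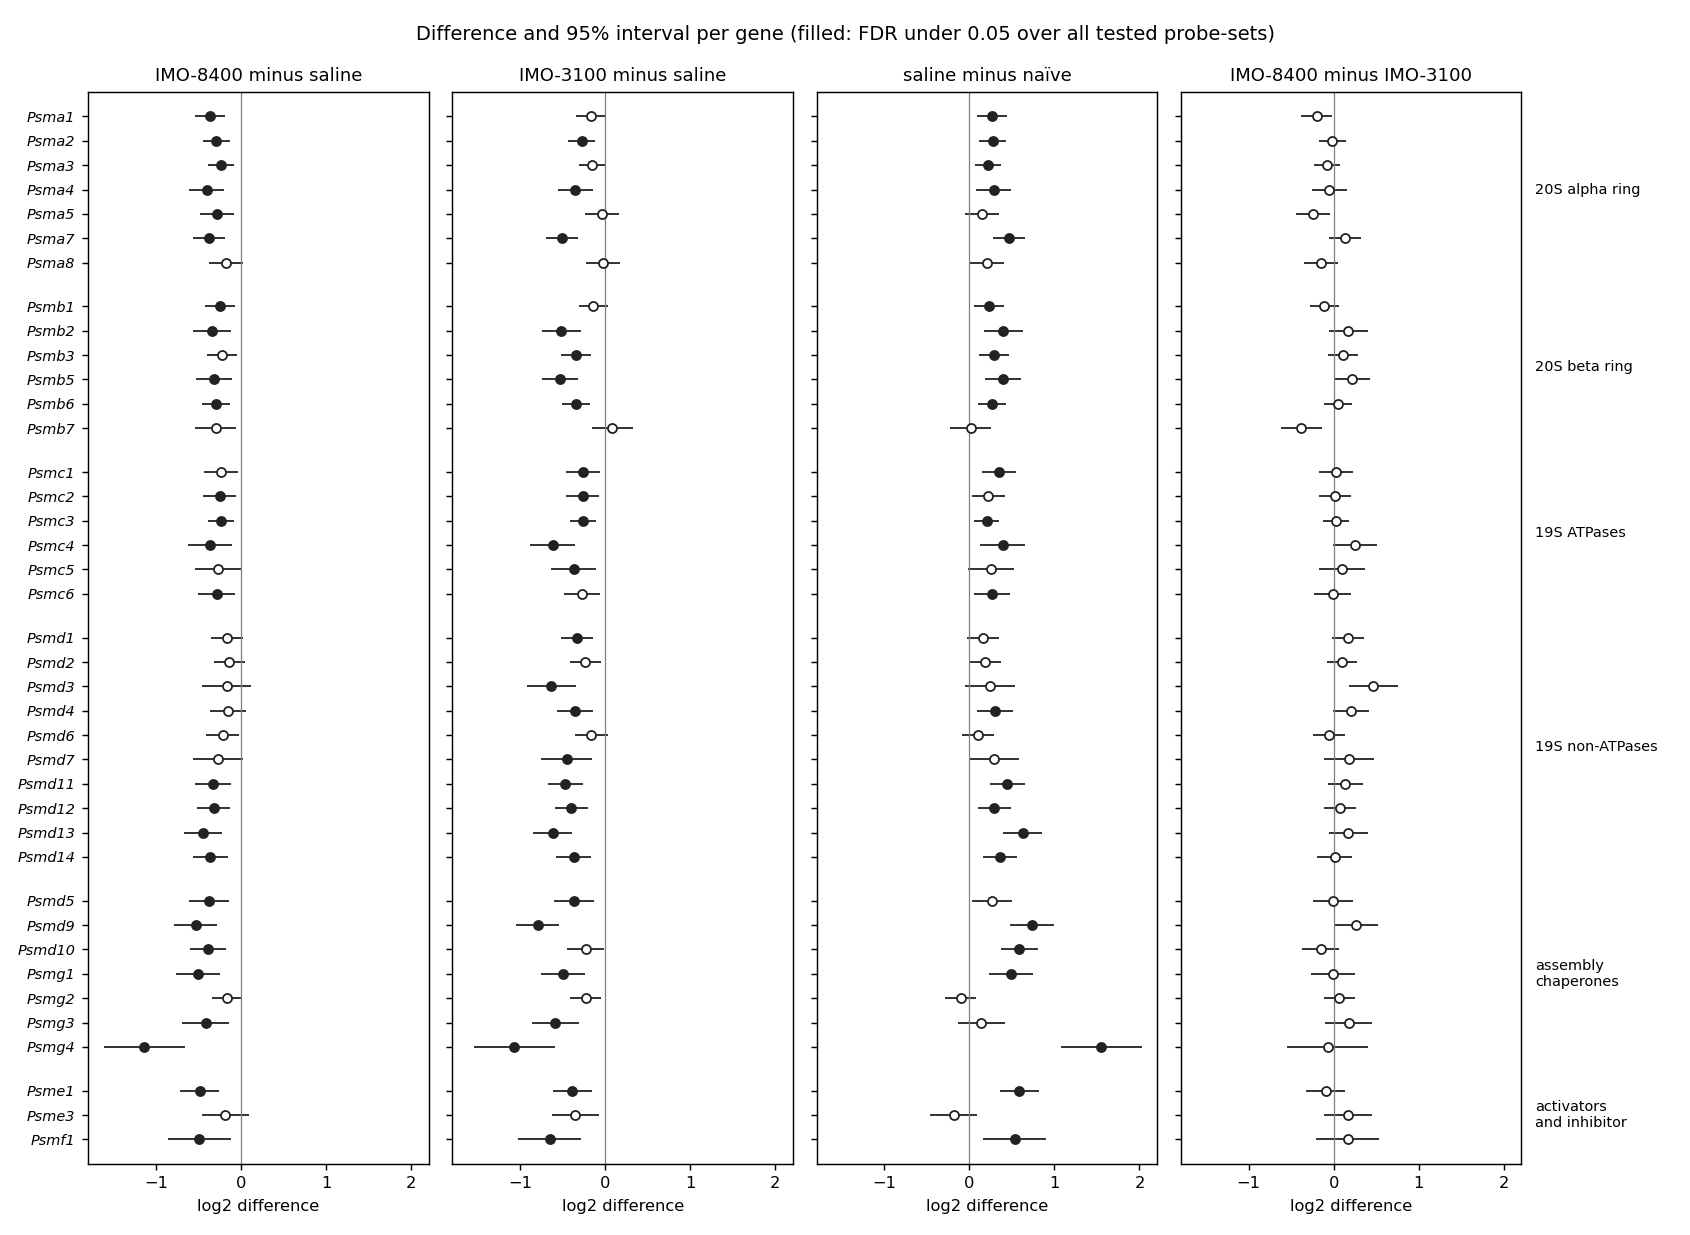
Log2 difference and 95% interval of limma for the 39 tested proteasome genes, ordered by role, with a panel each for IMO-8400 minus saline, IMO-3100 minus saline, saline minus naïve and IMO-8400 minus IMO-3100. Filled points have an FDR under 0.05. With IMO-8400 and IMO-3100, 26 and 27 genes were lower than with saline and none higher, 25 were higher in saline than in naïve skin, and no gene passed between the antagonists.

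Of 7 assembly chaperones measured, 6 were lower with IMO-8400 (median log2 difference -0.41), 5 lower with IMO-3100 (-0.50), and 4 higher in saline than in naïve skin (0.48). The gene with the largest change was Psmg4, which encodes a chaperone of the α ring. Its log2 values were 9.09, 8.77, 8.91, 7.96 and 8.20 in IMO-8400 skin. They were 8.92, 9.35, 8.43, 8.17 and 8.43 in IMO-3100 skin. They were 10.02, 9.74, 9.68, 9.66 and 9.52 in saline skin, and 8.07, 7.78, 8.31, 8.46 and 8.26 in naïve skin. Every saline mouse was above every other mouse. Psmg4 was 2.93-fold higher in saline than in naïve skin (log2 difference 1.55, standard error 0.23, limma adjusted p = 3.63e-05). It was 2.20-fold lower with IMO-8400 (-1.14, adjusted p = 0.0015) and 2.09-fold lower with IMO-3100 (-1.07, adjusted p = 0.00264). It was the only one of the 44 proteasome genes past FCH > 2 with either antagonist.

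Psmd9, which encodes a chaperone of the ATPase ring (p27), had log2 values of 10.14, 9.99, 9.97, 9.72 and 10.12 in IMO-8400 skin and 9.86, 9.97, 9.42, 9.67 and 9.71 in IMO-3100 skin. The values were 10.32, 10.47, 10.70, 10.57 and 10.54 in saline skin, and 10.04, 9.56, 9.97, 9.74 and 9.61 in naïve skin. Again the saline mice lay above all others. The log2 difference was -0.53 with IMO-8400 and -0.79 with IMO-3100 (limma, adjusted p = 0.00379 and 0.000255), and 0.74 for saline over naïve skin (standard error 0.12, adjusted p = 0.000113). Psmg1, which pairs with Psmg2 to seed the α ring, followed the same course, with mean log2 values of 10.07 ± 0.15 in IMO-8400, 10.08 ± 0.14 in IMO-3100, 10.58 ± 0.12 in saline and 10.09 ± 0.29 in naïve skin (SD, n = 5 each). Its differences were -0.51 and -0.50 with IMO-8400 and IMO-3100 and 0.48 for saline over naïve (limma, adjusted p = 0.00548, 0.00674 and 0.00396). For Psmg1, naïve replicate 1 (10.524) lay within the saline range of 10.422 to 10.755.

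The brightest probe-set of the partner Psmg2 did not pass in any of the 3 comparisons. Its mean log2 values were 11.10 ± 0.12 in IMO-8400, 11.03 ± 0.12 in IMO-3100, 11.26 ± 0.10 in saline and 11.36 ± 0.12 in naïve skin (SD, n = 5 each). The difference of saline over naïve was -0.10 (95% interval -0.28 to 0.08, limma adjusted p = 0.343), and those of IMO-8400 and IMO-3100 over saline had an adjusted p of 0.168 and 0.0558. At another probe-set, 1425373_a_at, Psmg2 was lower with IMO-8400 than with saline by 0.50 (limma, adjusted p = 0.0418), a call lost without IMO-8400 replicate 1, 2 or 4 or saline replicate 2, 3, 4 or 5 (adjusted p of 0.0665 to 0.106). Psmg3, the partner of Psmg4, had a difference of 0.14 for saline over naïve skin (-0.14 to 0.42, adjusted p = 0.399), and fell by 0.59 on the log2 scale with IMO-3100 (adjusted p = 0.00372). It fell by 0.41 with IMO-8400 (adjusted p = 0.0265), a call lost without IMO-8400 replicate 2 or 4 or saline replicate 4 or 5 (adjusted p of 0.0605 to 0.0756). The other tested probe-set of Psmg3, 1430572_at, did not pass in any of these comparisons. Psmd10, the 19S chaperone gankyrin, was higher in saline than in naïve skin by 0.59 (limma, adjusted p = 0.000175). It fell by 0.38 with IMO-8400 (adjusted p = 0.0095), while the difference with IMO-3100 was -0.23 (-0.44 to -0.02, adjusted p = 0.102).

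**Figure D3:**
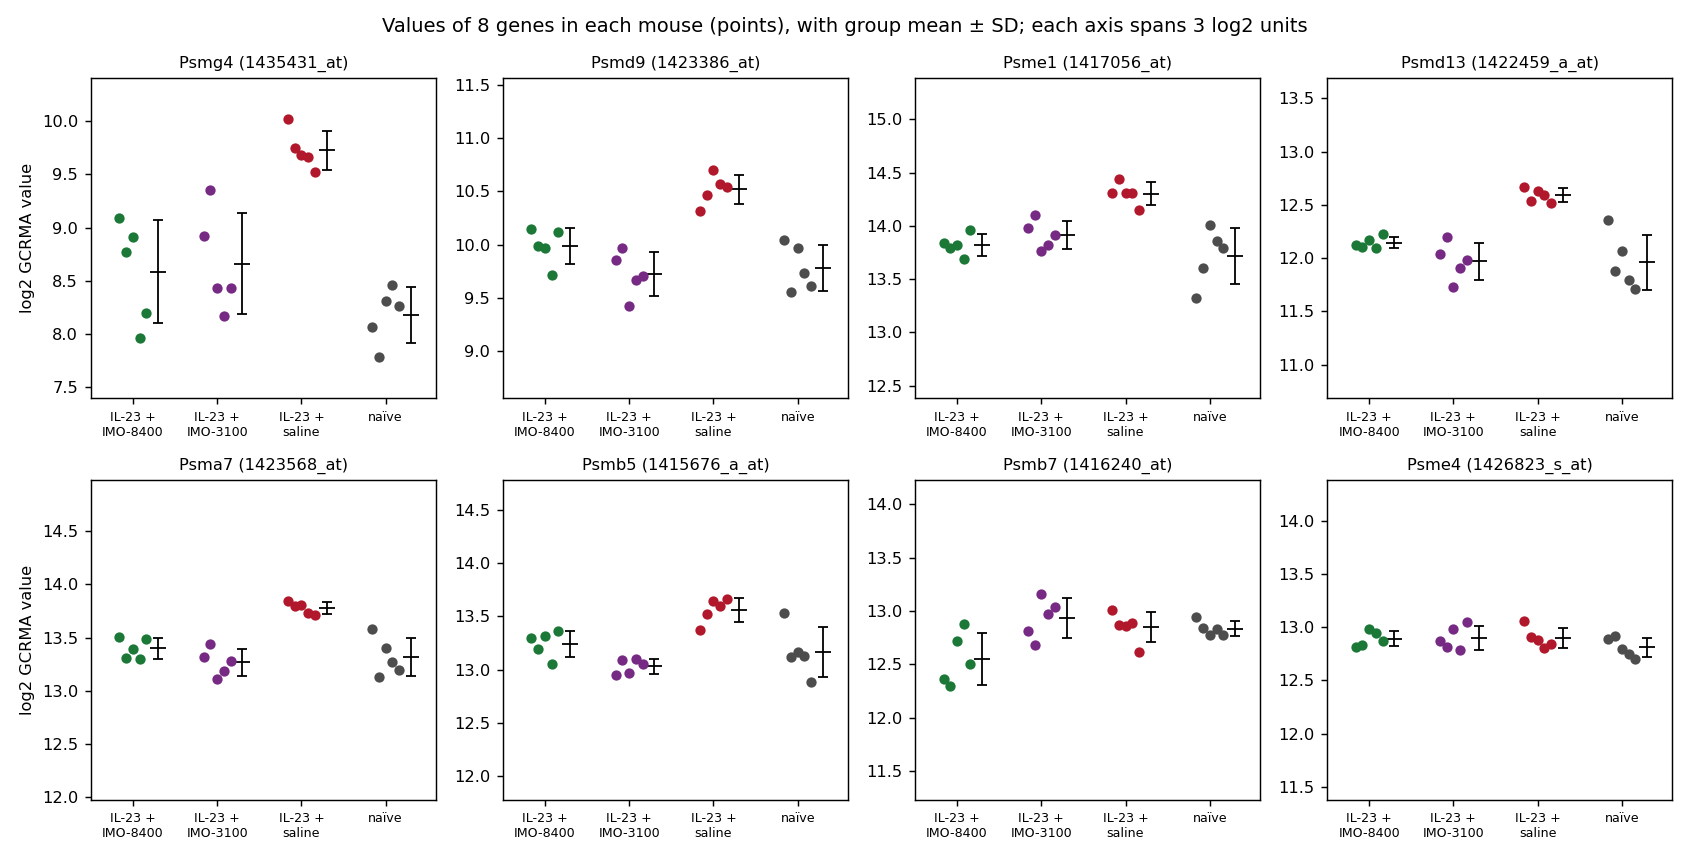
Log2 value per mouse of Psmg4, Psmd9, Psme1, Psmd13, Psma7, Psmb5, Psmb7 and Psme4, with the group mean, in the order IMO-8400, IMO-3100, saline and naïve. Each axis spans 3 log2 units. The saline mice lie above all others for Psmg4, Psmd9, Psme1, Psmd13 and Psma7, and overlap other groups for Psmb5, Psmb7 and Psme4.

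In the 20S core, 6 of 7 tested α subunits were lower with IMO-8400 (median -0.29), 3 of 7 lower with IMO-3100 (-0.16) and 5 of 7 higher in saline than in naïve skin (0.26). Psma7, named after its values were seen, had log2 values of 13.50, 13.30, 13.40, 13.30 and 13.49 in IMO-8400 skin and 13.32, 13.44, 13.11, 13.19 and 13.28 in IMO-3100 skin. They were 13.85, 13.80, 13.80, 13.73 and 13.72 in saline skin and 13.58, 13.13, 13.40, 13.27 and 13.19 in naïve skin. At this probe-set, 1423568_at, the saline values did not overlap with those of any other group. The difference was -0.38 with IMO-8400 and -0.51 with IMO-3100 (limma, adjusted p = 0.00457 and 0.000689), and 0.46 for saline over naïve (adjusted p = 0.000483). The other probe-set of Psma7, 1423567_a_at, was called in the same directions. There, naïve replicate 1 (13.511) lay within the saline range of 13.472 to 13.635. The bright probe-set of Psma6, which the filter left out for its small spread, averaged 13.87 ± 0.04 in IMO-8400, 13.95 ± 0.04 in IMO-3100, 14.07 ± 0.09 in saline and 13.93 ± 0.05 in naïve skin (SD, n = 5 each). Fitted without the filter, it passed in all 3 comparisons, with differences of -0.20, -0.12 and 0.14 (limma, adjusted p = 0.00124, 0.0213 and 0.0062).

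Among the β subunits, 4 of 6 tested were lower with IMO-8400 (median -0.30), 4 of 6 lower with IMO-3100 (-0.34) and 5 of 6 higher in saline than in naïve skin (0.28). Psmb5, the chymotrypsin-like subunit and the target of bortezomib, had log2 values of 13.30, 13.19, 13.31, 13.06 and 13.36 in IMO-8400 skin and 12.95, 13.09, 12.97, 13.10 and 13.05 in IMO-3100 skin. They were 13.38, 13.52, 13.64, 13.60 and 13.66 in saline skin and 13.53, 13.12, 13.16, 13.13 and 12.88 in naïve skin. Both antagonist groups lay wholly below saline, and naïve replicate 1 lay within the saline range. Psmb5 fell by 0.53 on the log2 scale with IMO-3100 (limma, adjusted p = 0.00137) and by 0.32 with IMO-8400 (adjusted p = 0.0268), and was 0.39 higher in saline than in naïve skin (adjusted p = 0.00444). The IMO-8400 call was lost without IMO-8400 replicate 2 or 4 or saline replicate 3, 4 or 5 (adjusted p of 0.0505 to 0.074). Psmb6, the caspase-like subunit, fell by 0.30 and 0.35 with IMO-8400 and IMO-3100 and was 0.26 higher in saline than in naïve skin (adjusted p = 0.00984, 0.00391 and 0.011).

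Psmb7, the trypsin-like subunit, did not pass in any of these 3 comparisons. Its log2 values were 12.36, 12.30, 12.72, 12.88 and 12.50 in IMO-8400 skin and 12.81, 12.68, 13.16, 12.97 and 13.04 in IMO-3100 skin. They were 13.01, 12.87, 12.86, 12.89 and 12.61 in saline skin and 12.95, 12.84, 12.77, 12.83 and 12.78 in naïve skin. The groups overlapped, with the IMO-8400 mice the lowest on average. The difference of saline over naïve was 0.02 (95% interval -0.23 to 0.26, limma adjusted p = 0.926), that of IMO-3100 over saline 0.08 (-0.16 to 0.32, adjusted p = 0.644), and that of IMO-8400 over saline -0.30 (-0.54 to -0.06, adjusted p = 0.0614).

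In the 19S cap, 4 of 6 ATPases were lower with IMO-8400 (median -0.26), 5 of 6 lower with IMO-3100 (-0.27) and 4 of 6 higher in saline than in naïve skin (0.26). Psmc4, the ATPase Rpt3, averaged 12.93 ± 0.11 in IMO-8400, 12.68 ± 0.19 in IMO-3100, 13.30 ± 0.15 in saline and 12.91 ± 0.28 in naïve skin (SD, n = 5 each). It fell by 0.62 on the log2 scale with IMO-3100 (limma, adjusted p = 0.0019). The IMO-8400 difference of -0.37 (adjusted p = 0.0359) did not pass without IMO-8400 replicate 2, 3 or 4 or saline replicate 2, 3, 4 or 5 (adjusted p of 0.0507 to 0.0875). The difference of saline over naïve, 0.39 (adjusted p = 0.0164), did not pass without naïve replicate 5 (adjusted p = 0.0504). The other tested probe-set of Psmc4, 1416290_a_at, did not pass in any of these comparisons. Its log2 values ran from 12.325 to 12.466 in IMO-8400 and 12.371 to 12.848 in IMO-3100 skin. They ran from 12.443 to 12.812 in saline and 12.395 to 12.994 in naïve skin.

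Of the non-ATPase subunits of the cap, 4 of 10 tested were lower with IMO-8400 (median -0.24), 8 of 10 lower with IMO-3100 (-0.38) and 5 of 10 higher in saline than in naïve skin (0.29). Psmd13, the lid subunit Rpn9, had log2 values of 12.13, 12.11, 12.17, 12.10 and 12.22 in IMO-8400 skin and 12.04, 12.20, 11.73, 11.90 and 11.98 in IMO-3100 skin. They were 12.67, 12.53, 12.63, 12.59 and 12.51 in saline skin and 12.36, 11.88, 12.07, 11.80 and 11.70 in naïve skin. No saline value overlapped with another group. The differences were -0.44 with IMO-8400 and -0.62 with IMO-3100 (limma, adjusted p = 0.00573 and 0.000703), and 0.63 for saline over naïve (standard error 0.11, adjusted p = 0.000174).

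Psmd3, the lid subunit Rpn3, was lower with IMO-3100 and not shown to be with IMO-8400. Its log2 values were 11.24, 10.91, 10.98, 10.79 and 10.78 in IMO-8400 skin and 10.36, 10.57, 10.35, 10.25 and 10.81 in IMO-3100 skin. They were 10.86, 11.11, 11.25, 11.05 and 11.26 in saline skin and 11.22, 10.96, 10.81, 10.88 and 10.46 in naïve skin. The IMO-3100 mice lay below all saline mice, and the IMO-8400 mice overlapped with saline. Psmd3 fell by 0.64 on the log2 scale with IMO-3100 (limma, adjusted p = 0.00297), and the difference with IMO-8400 was -0.17 (95% interval -0.46 to 0.12, adjusted p = 0.388). Saline over naïve gave 0.24 (-0.05 to 0.53, adjusted p = 0.16).

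Of 3 tested activators and inhibitor, 2 were lower with IMO-8400 (median log2 difference -0.48), 2 lower with IMO-3100 (-0.39) and 2 higher in saline than in naïve skin (0.53). Psme1 encodes PA28α, an interferon-inducible cap that opens the 20S core for peptide production. Its log2 values were 13.84, 13.79, 13.82, 13.69 and 13.96 in IMO-8400 skin and 13.98, 14.10, 13.77, 13.82 and 13.91 in IMO-3100 skin. They were 14.31, 14.44, 14.31, 14.31 and 14.14 in saline skin and 13.32, 13.60, 14.01, 13.86 and 13.79 in naïve skin. All saline mice were above all other mice. Psme1 fell by 0.48 and 0.39 on the log2 scale with IMO-8400 and IMO-3100 (limma, adjusted p = 0.00365 and 0.0148), and was 0.59 higher in saline than in naïve skin (adjusted p = 0.00037). Psme4, the activator PA200, averaged 12.89 ± 0.07 in IMO-8400, 12.90 ± 0.11 in IMO-3100, 12.90 ± 0.10 in saline and 12.81 ± 0.09 in naïve skin (SD, n = 5 each), a spread too small for the filter. Of its 5 tested probe-sets, 0 were called in these 3 comparisons, and 2 were higher with IMO-3100 than in naïve skin. At 1443116_at log2 values ran from 7.353 to 8.760 with IMO-8400 and 7.878 to 8.852 with IMO-3100. They ran from 7.297 to 8.780 in saline and 6.775 to 7.649 in naïve skin.

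Psme3 encodes PA28γ, a nuclear activator, and its probe-sets did not give the same picture. At the brightest, the difference was -0.18 with IMO-8400, -0.35 with IMO-3100 and -0.18 for saline over naïve skin (limma, adjusted p = 0.319, 0.056 and 0.267). At another, 1418079_at, log2 values were 10.20, 10.23, 10.45, 10.13 and 10.54 in IMO-8400 skin, 10.13, 10.50, 9.89, 10.02 and 10.10 in IMO-3100 skin, 10.99, 10.98, 11.23, 10.89 and 11.11 in saline skin and 10.99, 10.37, 10.51, 10.98 and 10.33 in naïve skin. There, both antagonist groups lay wholly below saline. This probe-set fell by 0.73 and 0.92 with IMO-8400 and IMO-3100 (limma, adjusted p = 0.00137 and 0.000326). Its difference of saline over naïve was 0.41 (adjusted p = 0.0284), a call lost without saline replicate 3 or 5 or naïve replicate 2, 3 or 5 (adjusted p of 0.0551 to 0.0825).

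Psmf1, which encodes the inhibitor PI31, had probe-sets that disagreed. Its brightest, 1451337_at, had a log2 difference of -0.49 with IMO-8400, -0.65 with IMO-3100 and 0.53 for saline over naïve skin (limma, adjusted p = 0.0463, 0.0113 and 0.0199). The call with IMO-3100 held without any single mouse (adjusted p of at most 0.0355). The call of saline over naïve was lost without saline replicate 3, 4 or 5 or naïve replicate 2 (adjusted p of 0.0511 to 0.0626), and that with IMO-8400 without any of 12 single mice, IMO-8400 replicates 2 to 5, IMO-3100 replicates 1, 4 and 5, saline replicates 3 to 5 and naïve replicates 4 and 5 (adjusted p of 0.0509 to 0.119). At 1424371_at the log2 values were 5.05, 5.03, 5.58, 5.20 and 5.18 in IMO-8400 skin, 5.84, 5.77, 5.70, 5.83 and 4.99 in IMO-3100 skin, 4.27, 5.64, 4.81, 5.25 and 5.61 in saline skin and 6.78, 6.01, 5.63, 6.49 and 5.91 in naïve skin. Here saline was lower than naïve skin, by 1.05 on the log2 scale (limma, adjusted p = 0.00309). It was the only member past FCH > 2 downwards in that comparison, and 0 were past it without saline replicate 1 or 3 or naïve replicate 1 or 4.

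Psmd9 and Psma5 also had probe-sets called in opposite directions. At the Psmd9 probe-set 1447670_at, saline was lower than naïve skin by 0.71 and IMO-3100 higher than saline by 0.94 (limma, adjusted p = 0.0296 and 0.0115), against the brightest probe-set of the gene in both comparisons. At 1454940_at for Psma5 the difference of saline over naïve was -0.40 (adjusted p = 0.0482), beside 0.38 at 1424681_a_at (adjusted p = 0.00134). The call of saline over naïve at 1447670_at was lost without saline replicate 2, 3 or 5 or naïve replicate 2, 4 or 5 (adjusted p of 0.0505 to 0.093). That at 1454940_at was lost without any of 16 single mice, all but IMO-3100 replicates 2 and 3, saline replicate 1 and naïve replicate 5 (adjusted p of 0.0513 to 0.119). Probe-sets of a gene can match different transcripts, and which of them they measure was not tested. The other lower calls in saline skin were 1424370_s_at of Psmf1 (-0.35, limma adjusted p = 0.0382, lost without saline replicate 1, 2 or 5 or naïve replicate 1, 2, 3 or 4 with an adjusted p of 0.0544 to 0.114) and 1444264_at of Psmg2, which lay near the lowest value. The other higher calls with IMO-3100 were 1424370_s_at (0.47, adjusted p = 0.0146) and 1435316_at of Psma6 (0.54, adjusted p = 0.0233), also near the lowest value and lost without IMO-3100 replicate 3 or 4 or saline replicate 2 (adjusted p of 0.0517 to 0.0608).

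**Figure D4:**
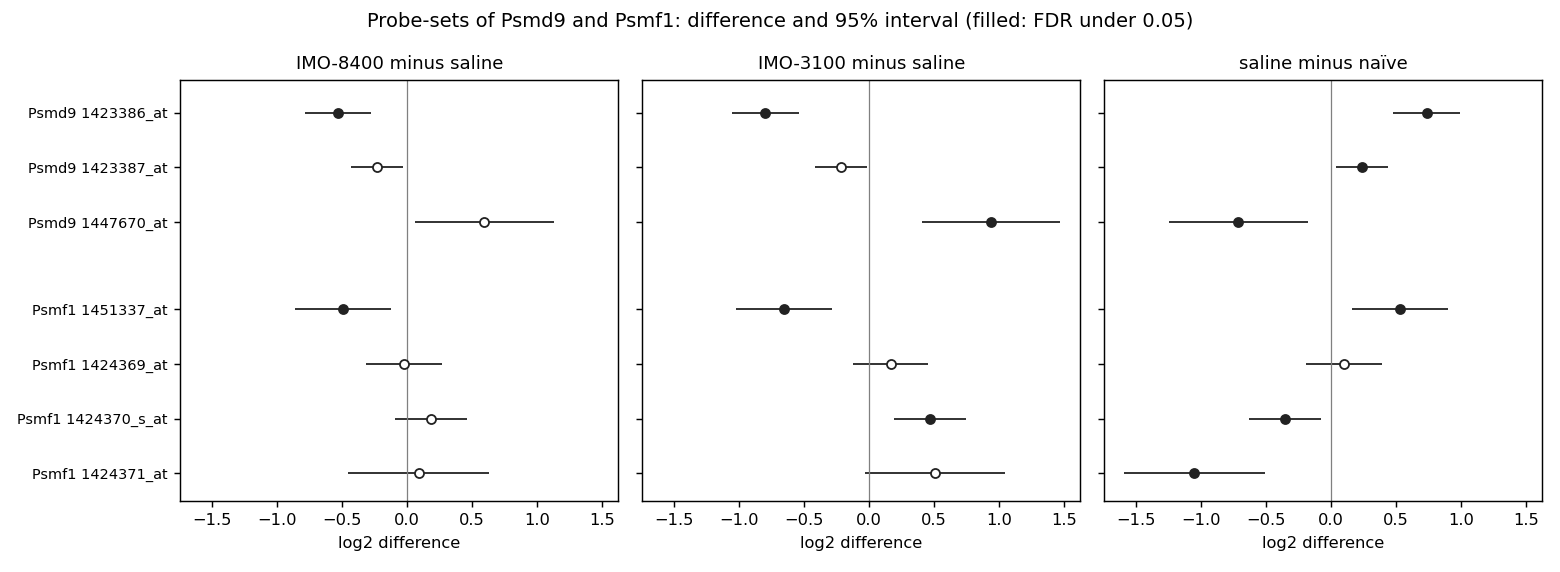
Log2 difference and 95% interval of limma at the 3 tested probe-sets of Psmd9 and the 4 of Psmf1, with a panel each for IMO-8400 minus saline, IMO-3100 minus saline and saline minus naïve. The brightest probe-set of each gene is at -0.53 and -0.49, -0.79 and -0.65, and 0.74 and 0.53 in the 3 panels, while 1447670_at and 1424371_at are at -0.71 and -1.05 for saline minus naïve.

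The members outside the proteasome differed from each other. Psmc3ip had log2 values of 8.89, 8.83, 9.21, 9.15 and 8.71 in IMO-8400 skin and 9.13, 9.16, 8.55, 8.90 and 9.18 in IMO-3100 skin. They were 10.20, 9.96, 10.21, 9.78 and 9.79 in saline skin and 10.39, 9.22, 9.16, 9.34 and 8.76 in naïve skin. The antagonist groups lay wholly below saline, and naïve replicate 1 lay above every saline mouse. Both probe-sets passed FCH > 2 with both antagonists, at -1.03 and -1.41 with IMO-8400 (limma, adjusted p = 0.00259 and 0.000633) and -1.003 and -1.53 with IMO-3100 (adjusted p = 0.00339 and 0.000434). With IMO-3100, leaving out its replicate 4 or saline replicate 1 left 1 of the 3 members past FCH > 2. The difference of saline over naïve at the brighter probe-set, 0.62 (adjusted p = 0.0306), was lost without saline replicate 1 or 3 or naïve replicate 2, 3, 4 or 5 (adjusted p of 0.0501 to 0.0914). Psme3ip1 averaged 10.99 ± 0.04 in IMO-8400, 10.88 ± 0.16 in IMO-3100, 11.10 ± 0.03 in saline and 10.89 ± 0.20 in naïve skin (SD, n = 5 each), and none of these comparisons passed.

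IMO-8400 and IMO-3100 were compared directly at the same dose and days. Of the 39 proteasome genes, 0 passed in either direction (limma, 2 higher and 3 lower with IMO-8400 at an unadjusted p under 0.05), with 24 differences above 0, 15 below, and a range of -0.38 to 0.47. Among all tested probe-sets, 1.82% were higher and 1.94% lower with IMO-8400, and of the 85 members 0 were higher and 1 lower (4 and 17 at an unadjusted p under 0.05). The count of lower members was 9 without naïve replicate 1, 6 after quantile normalization and 17 with array weights, which also gave 6 higher. The shares of all tested probe-sets in these refits are not given here, and those above are of the main fit. The member that passed was 1436769_at of Psma1, with log2 values of 5.05, 4.88, 5.05, 5.27 and 5.14 in IMO-8400 skin and 5.27, 5.55, 6.12, 5.63 and 5.75 in IMO-3100 skin. It was lower with IMO-8400 by 0.59 (95% interval -0.88 to -0.29, adjusted p = 0.0291), and the call was lost without IMO-8400 replicate 1, 2, 3 or 5 or IMO-3100 replicate 3, 4 or 5 (adjusted p of 0.0517 to 0.0848). At the brightest probe-set of Psma1 the difference was -0.20 (-0.38 to -0.02, adjusted p = 0.175). The genes at the ends of the range were Psmb7 (-0.38, -0.62 to -0.14, adjusted p = 0.0678) and Psmd3 (0.47, 0.18 to 0.76, adjusted p = 0.0626). For Psmg4 the interval ran from -0.55 to 0.40 around -0.07 (adjusted p = 0.923), so a difference of these sizes in either direction was within the error.

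Set against naïve skin, most proteasome genes of the antagonist groups did not pass. With IMO-8400, 0 of 39 genes were higher and 1 lower (limma, 0 and 3 at an unadjusted p under 0.05), and of the 85 members 1 was higher (8.91% of all tested) and 3 lower (8.83% of all). With IMO-3100, 1 gene was higher and 4 lower, and of the members 6 were higher (12.4% of all) and 7 lower (15.3% of all). The median difference over the 39 genes was -0.00 with IMO-8400 and -0.05 with IMO-3100. The gene that was higher with IMO-3100 was Psmd10 (0.36, limma adjusted p = 0.0141). The lower ones were Psme3 (-0.54, adjusted p = 0.00616), Psmg2 (-0.33, adjusted p = 0.00837), Psmg3 (-0.45, adjusted p = 0.0171) and Psmd3 (-0.39, adjusted p = 0.0401). Other probe-sets than the brightest were also called with IMO-3100. Higher were 2 of Psma1, 1 of Psmb1 and 2 of Psme4. Lower were 1 of Psma5, 1 of Psmc3ip and a further one of Psme3. The gene that was lower with IMO-8400 was Psmg2 (-0.26, adjusted p = 0.0407). The call of Psmg3 was lost without IMO-3100 replicate 4 (adjusted p = 0.0526), and that of Psmd3 without IMO-3100 replicate 1, 3 or 4 or naïve replicate 1, 2, 3 or 4 (adjusted p of 0.0531 to 0.101). That of Psmg2 with IMO-8400 was lost without IMO-8400 replicate 1, 2, 3 or 5 or naïve replicate 1, 2 or 4 (adjusted p of 0.0682 to 0.101).

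The immunoproteasome subunits left out of the list are given beside the constitutive ones that they replace. Psmb8, Psmb9 and Psmb10 were higher in saline than in naïve skin by 1.66, 1.495 and 1.61 on the log2 scale (limma, adjusted p = 0.000328, 0.0007 and 7.23e-05), where Psmb5, Psmb6 and Psmb7 differed by 0.39, 0.26 and 0.02. Psmb10 fell by 1.13 with IMO-8400 (adjusted p = 0.00328) and by 0.75 with IMO-3100 (adjusted p = 0.0347), where its constitutive counterpart Psmb7 did not pass. The IMO-3100 call was lost without IMO-3100 replicate 3, 4 or 5 or saline replicate 1, 2, 3 or 4 (adjusted p of 0.0571 to 0.0924). Psmb8 and Psmb9 fell by 0.86 and 0.90 with IMO-8400 (limma, adjusted p = 0.0442 and 0.0332), while their differences with IMO-3100 were -0.73 and -0.59 (adjusted p = 0.0885 and 0.159). With IMO-8400 the Psmb8 call was lost without any of 14 single mice, all but IMO-3100 replicates 2 and 4 and naïve replicates 1, 3, 4 and 5 (adjusted p of 0.051 to 0.0933). The Psmb9 call was lost without IMO-8400 replicate 1, 2 or 4 or saline replicate 1, 2, 3 or 4 (adjusted p of 0.0523 to 0.0747). The Psmb8 differences given here are of its brightest probe-set. Its other tested probe-set, with lower values, did not lie higher in saline than with the antagonists. There, log2 values ran from 6.164 to 7.98 with IMO-8400 and 6.068 to 7.01 with IMO-3100. They ran from 5.76 to 6.44 in saline and 4.1 to 7.428 in naïve skin. Against naïve skin, Psmb8, Psmb9 and Psmb10 were higher with IMO-3100 by 0.94, 0.90 and 0.86 (adjusted p = 0.0302, 0.0328 and 0.0175). The first of these calls was lost without IMO-3100 replicate 1, 2 or 5 or naïve replicate 2, and the second without IMO-3100 replicate 1, 2 or 3 or naïve replicate 2 (adjusted p of 0.0507 to 0.0741). With IMO-8400 their differences from naïve skin were 0.80, 0.59 and 0.48 (adjusted p = 0.0787, 0.181 and 0.2). In the mean of the 3 genes, relative to the naïve mean, mice ran between 0.409 and 0.809 with IMO-8400, 0.543 and 1.30 with IMO-3100, 1.28 and 1.80 with saline and -1.44 and 0.722 in naïve skin. Naïve replicate 1, the highest naïve mouse for the constitutive genes, was at -1.44 and the lowest for these. Differences between probe-sets of different genes were not tested against each other.

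Lists around the proteasome (ubiquitin, receptors and deubiquitinases, shuttle factors and transcriptional control) held 36 symbols, some of them older names of the same gene. Of the 6 ubiquitin symbols, only 1 was measured. Over all lists, 23 genes were measured and tested. With IMO-8400, 2 of the 23 genes were higher and 4 lower than with saline, where 14.7% and 13.2% of all tested probe-sets were. With IMO-3100 0 were higher and 5 lower, where 12.4% and 14.4% of all were. In saline 7 were higher and 3 lower than in naïve skin, where 20.7% and 24% of all were. Uchl5, a deubiquitinase of the 19S cap, fell by 0.50 and 0.42 on the log2 scale with IMO-8400 and IMO-3100 (limma, adjusted p = 0.0064 and 0.018). Pomp, the chaperone that matures the core, fell by 0.23 and 0.21 (adjusted p = 0.0233 and 0.0401), and was 0.26 higher in saline than in naïve skin (adjusted p = 0.00745). The Pomp call with IMO-8400 was lost without replicate 1 or 2 of IMO-8400 or of saline (adjusted p of 0.0514 to 0.0694), and that with IMO-3100 without IMO-3100 replicate 1, 3, 4 or 5 or saline replicate 1, 2, 3 or 4 (adjusted p of 0.0538 to 0.105). The Uchl5 call with IMO-3100 was lost without IMO-3100 replicate 3 (adjusted p = 0.0564). Zfand5, an activator of the 26S proteasome, was 0.64 higher in saline than in naïve skin (adjusted p = 5.41e-06) with differences of -0.05 and -0.10 with IMO-8400 and IMO-3100 (adjusted p = 0.706 and 0.364). The shuttle factors Ubqln1 and Ubqln2 were lower in saline than in naïve skin by 0.30 and 0.35 (adjusted p = 0.00424 and 0.0138). Nfe2l1, which encodes NRF1, the activator of proteasome genes, was higher with IMO-8400 than with saline by 0.35 (adjusted p = 0.0215), a call lost without IMO-8400 replicate 2 (adjusted p = 0.0573). Ufd1, also on these lists, was higher with IMO-8400 than with saline by 0.42 at an FDR under 0.05. Usp14, another deubiquitinase of the cap, was lower with IMO-8400 than with IMO-3100 by 0.61 (adjusted p = 0.0233), a call lost without IMO-8400 replicate 1 or 2 or IMO-3100 replicate 3, 4 or 5 (adjusted p of 0.0538 to 0.0711). At an FDR under 0.05 it was also 0.48 lower with IMO-8400 than with saline. With IMO-3100 it was 0.39 higher than in naïve skin.

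Markers of several other cell types moved with these groups. Of 8 T cell genes, 3 and 4 were lower than with saline with IMO-8400 and IMO-3100, and 8 were higher in saline than in naïve skin. Their list mean per mouse ran between 8.91 and 9.40 with IMO-8400, 8.47 and 9.13 with IMO-3100, 9.45 and 9.93 with saline and 6.00 and 8.26 in naïve skin. Of 5 neutrophil genes, 4 and 3 were lower than with saline, and 5 were higher in saline than in naïve skin, with list means of 9.77 to 10.6, 9.72 to 11.1, 11.6 to 12.1 and 6.41 to 8.47 in the same order. The neutrophil genes were Csf3r, Cxcr2, Mmp9, S100a8 and S100a9. The study counts S100a8 and S100a9 among the keratinocyte genes that IL-17 regulates, so this list is not specific to neutrophils. Of 7 interferon-γ response genes, 6 and 5 were lower than with saline, and 7 higher in saline than in naïve skin, with list means of 9.28 to 9.96, 9.80 to 10.9, 10.9 to 12.6 and 7.59 to 9.75. Of these markers, Ifng, the gene of interferon-γ, lay below 3 in all 5 naïve mice, and the others did not. Of 7 macrophage genes, 1 and 0 were lower than with saline with IMO-8400 and IMO-3100, and 3 were higher and 1 lower in saline than in naïve skin, with list means of 12.1 to 12.7, 12.7 to 13.2, 12.5 to 12.8 and 10.7 to 13.0. Fat and muscle ran the other way, with 4 of 5 adipocyte and 6 of 7 skeletal muscle genes lower in saline than in naïve skin, and 3 and 6 higher than with saline with IMO-8400 and 3 and 1 with IMO-3100. All 11 hair genes were lower in saline than in naïve skin, and none passed with either antagonist. Of 6 keratinocyte genes, Krt14 and Krt1 were higher and Krt10 lower in saline than in naïve skin. Krt10 was higher than with saline with both antagonists, and Trp63 with IMO-8400. The part of these cell types in the proteasome differences was not tested.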

How the data were processed

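Skin RNA of 20 mice, 1 Affymetrix mouse4302 array per mouse, was measured in 4 groups of 5. The authors deposited GCRMA-normalized expression values on the log2 scale, which were used as given. The sources used here name no GCRMA version. Replicates were numbered in accession order, and the number of arrays limits the precision. The authors' filter was repeated (at least 3 arrays above 2, and an SD over 0.1), and its part on values removed 0 probe-sets. A linear model of 4 group means was fitted with limma 3.58.1 (lmFit and eBayes, R 4.3.3), and p-values were adjusted by Benjamini-Hochberg over 30960 tested probe-sets. The model was tested on simulated data. A gene is represented by its probe-set with the highest mean. DEGs have an FDR under 0.05 and a FCH over 2. Background shares are those of all 30960 tested probe-sets, members included, at the same cutoff as the member count beside them.

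The members and lists were chosen with earlier results of these data known. Named genes are, per comparison, the 8 with the largest change each way, the catalytic subunits, activators, inhibitor and chaperones, up to 4 pathway genes each way, and members that go against their group. Only some of these pathway genes are described in the text, and Txnl1 and Vcp are among those that are not. Psma7 and single probe-sets were named after their values were seen. Alternatives were no filter, a stricter filter (at least 5 arrays above 4), a floor of 4, scaling to 1 common 75th percentile, quantile normalization, fits of 2 groups alone, eBayes with a trended and robust prior, array weights, probe-sets of unique design, each array left out, and naïve replicates 1 and 2 left out. Another subunit, whose probe-set carries several symbols, was not analysed here.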

Additional observations from a re-analysis of the deposited data

Results flagged for a closer look

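Groups of 5 mice were examined for 20 named genes, Psmc3ip and the immunoproteasome subunits among them, and for the mean over the 44 proteasome genes. Of these 84 groups, 3 held a mouse far from the other 4, where chance gives about 1 in 20. Psmd10 had a log2 value of 10.078 in saline replicate 5, below 10.368 to 10.461 in the other saline mice. Psmg1 had 9.807 in IMO-8400 replicate 2, below 10.094 to 10.205 in the other IMO-8400 mice. Psmb10 had 13.249 in saline replicate 5, below 13.65 to 13.743 in the other saline mice. The difference between the antagonists at 1436769_at of Psma1, -0.59 on the log2 scale (95% interval -0.88 to -0.29), was the only one of 85 members past the FDR in that direct test (limma).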

How the results depend on the processing

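Over the calls of the named genes and all alternatives, 2089 refits with 1 mouse left out kept the call and 291 lost it, 1054 refits under the other settings kept it and 93 lost it, and 0 changed direction. Results of these genes not called in the main fit became called in 58 refits with 1 mouse left out and stayed uncalled in 3802. Under the other settings 77 became called and 1764 stayed uncalled. The cause of the changes was not tested. Scaling moved the median difference of all tested probe-sets by at most 0.0461 on the log2 scale.

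These counts are of member probe-sets past the FDR. The shares of all tested probe-sets called in the same refits are not given here. A change particular to the members therefore cannot be read from the counts. With 2 groups fitted alone, 27 were higher and 3 lower in saline than in naïve skin, 2 lower with IMO-8400 than with IMO-3100, 3 higher and 3 lower with IMO-3100 than in naïve skin, and 0 higher and 1 lower with IMO-8400 than in naïve skin. With the 56 tested probe-sets of unique design, 23 were lower with IMO-8400 and 25 with IMO-3100 than with saline, 22 higher in saline and 0 higher with IMO-8400 than in naïve skin. Lower in saline than in naïve skin were 2 without the filter and 2 after quantile normalization (0 of them past FCH > 2). Between the antagonists, 4 were lower with IMO-8400 under the stricter filter, with values under 4 set to 4 and at a common 75th percentile, 6 after quantile normalization and 2 with the trended prior. With array weights, 6 were higher and 17 lower with IMO-8400 than with IMO-3100, 2 higher with IMO-8400 and 6 with IMO-3100 than with saline (1 of the 6 past FCH > 2), 4 higher and 1 lower with IMO-8400 than in naïve skin, and past FCH > 2, 2 higher and 0 lower in saline than in naïve skin. Without naïve replicates 1 and 2, 2 were higher and 8 lower with IMO-8400 than with IMO-3100, 3 lower with IMO-3100 and 3 higher and 0 lower with IMO-8400 than in naïve skin, and 2 lower in saline than in naïve skin, with 3 higher and 0 lower past FCH > 2.

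With each mouse left out in turn, members lower than with saline ran from 24 (without IMO-8400 replicate 2) to 49 with IMO-8400 and from 35 to 45 with IMO-3100, and higher ones from 0 to 1 and from 2 to 5. Past FCH > 2, lower ones ran from 2 to 3 with IMO-8400 and from 1 to 4 with IMO-3100, and higher ones from 0 to 0 and from 0 to 1. In saline against naïve skin, higher ones ran from 30 to 51, lower ones from 2 to 5, and past FCH > 2 from 1 to 2 and from 0 to 1. Between IMO-8400 and IMO-3100, higher ones ran from 0 to 2 and lower ones from 0 to 9 (9 without naïve replicate 1). Against naïve skin, higher ones ran from 1 to 4 with IMO-8400 and from 3 to 10 with IMO-3100, and lower ones from 1 to 6 and from 3 to 8. Here too the shares of all tested probe-sets in the refits are not given.

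No paired analysis was possible because replicate numbers come from accession order. The table gives no detection calls, so values near the lowest carry no order, and 5 mice per group limit what can be shown.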
